A study of Mus musculus with 60 samples.

Results

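The comparison described here sets hexamethylene bisacetamide (HMBA) against dimethyl sulfoxide (DMSO) after 6 and 12 h of treatment. Its members were defined by their labels, with earlier results of these data known. They were the arrays of HMBA and of DMSO at 6 and 12 h, 16 of the 60 arrays of the series. The cells were T-3-Cl-2-0.fl, a mouse erythroleukemia (MEL) line that differentiates readily when induced, kept in RPMI1640 with fetal calf serum and given 1.5% DMSO or 5 mM HMBA. The DMSO dose is that of the design text, since 1 label field of each DMSO array leaves out its decimal point. Each group held 4 arrays, which the labels call technical replicates of 1 pair of RNA extracts, and each array compared RNA after treatment with RNA before treatment in 2 colours. Replicates 1 and 2 carried the treated RNA in the dye Cy5, replicates 3 and 4 in Cy3, so an HMBA array and a DMSO array of the same time and replicate number share the dye of the treated RNA. This matching gave 8 pairs, 4 at each time. No culture without inducer was labelled for these times, and the sources used here do not say whether the RNA before treatment was 1 extract or several.

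MEL cells are virus-transformed red cell precursors held at an immature stage. Inducers such as HMBA and DMSO make them commit to maturation after a latent period, and the cells later leave the cycle and switch on globin and heme synthesis genes. DMSO is a common solvent later found to induce these cells, and HMBA, a polar compound developed as an inducer of them, is also known for releasing the transcription elongation factor P-TEFb from its inhibitor HEXIM1, a protein named after the compound. The samples at 6 and 12 h fall in the hours around commitment. The arrays carry spotted cDNA clones whose identifiers could not be paired with genes here, as 0 of the 22656 identifiers matched the gene table, so clones are described by their values, markers of red cells or of other cells could not be checked, and no sequence is shown. Several clones can represent the same gene.

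HMBA arrays listed fewer clones and had a wider spread of ratios than DMSO arrays. Between 17798 and 19307 clones were listed on HMBA arrays and between 20455 and 21087 on DMSO arrays, without overlap. The SD of log2 ratios (after over before treatment) across clones lay between 0.557 and 0.787 on HMBA arrays and between 0.387 and 0.506 on DMSO arrays, also without overlap. Median intensity after treatment ranged from 311 to 959 with HMBA and from 513 to 791 with DMSO. Arrays of the same condition and dye orientation correlated across clones at r between 0.464 and 0.682, and arrays of opposite orientation at r between -0.0946 and 0.293. The 2 slides of an array also held different clones. On DMSO arrays the H3 plates above 120 shared a slide with H3 plates 1 to 120, and on HMBA arrays they shared a slide with the H4 plates. These 2482 of the 14816 clones tested are therefore given apart, and for all other clones too the slide layout and the inducer cannot be told apart.

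Differences between HMBA and DMSO held between pairs of the same dye orientation and hardly between orientations. Pairs of 1 orientation and time correlated across clones at a median r of 0.44 (4 comparisons, 0.327 to 0.486), and pairs of 1 orientation at different times at a median of 0.283 (8 comparisons, 0.133 to 0.405). Pairs of opposite orientation had a median of -0.0364 (16 comparisons, -0.330 to 0.125). The mean over Cy5 pairs and the mean over Cy3 pairs correlated at -0.108, and at 0.0761 with the median of each plate row removed. Averaged over both orientations, the difference at 6 h correlated with that at 12 h at 0.408. Across orientations this agreement between times was not seen. The 6 h mean of Cy5 pairs correlated with the 12 h mean of Cy3 pairs at -0.0595. For Cy3 pairs at 6 h and Cy5 pairs at 12 h the value was 0.0402. These correlations are over clones that share slides and plate positions and are given as descriptions. Of the variance of the averaged difference, 18.2% lay between rows of the clone plates, 31.7% among the H3 plates above 120 and 14.3% among the others. All condition values below are therefore means of the 2 orientations. An effect that is equal and opposite in the 2 orientations cancels in them. One seen in a single orientation is made smaller but stays in the mean.

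**Figure D1:**
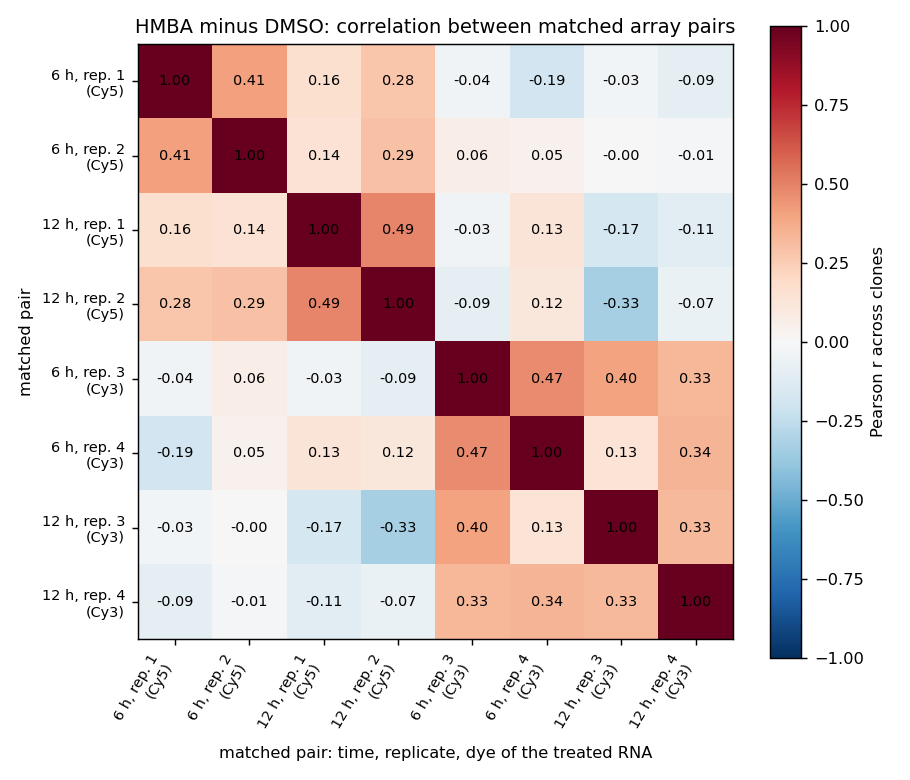
Pearson correlation across clones of the HMBA minus DMSO difference (log2 of after over before treatment) between the 8 matched array pairs, ordered by the dye of the treated RNA. Blocks of the same dye are positive, 0.133 to 0.486, while those of opposite dye lie between -0.330 and 0.125.

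At 6 and 12 h of both inducers clones differed from their level before treatment. The clones that moved with one inducer had the same direction in the median with the other. Without a culture free of inducer, such changes cannot be told apart from those of time in culture. With HMBA limma called 2724 of the 14816 clones (18.4%, adjusted p below 0.05), 1429 higher and 1295 lower. With DMSO it called 620 (4.18%), 280 higher and 340 lower. On Cy5 arrays alone, with 16242 clones tested, the calls were 2122 with HMBA and 348 with DMSO. On Cy3 arrays alone, with 16747 clones tested, the calls were 2652 with HMBA and 36 with DMSO. They were 66 and 2 without 6 h, and 482 and 0 without 12 h. The 1429 clones that rose with HMBA (9.64% of all) stood at a median of 0.62 log2 units with HMBA and 0.22 with DMSO, and the 1295 that fell (8.74%) at -0.58 and -0.22. The 280 that rose with DMSO (1.89%) stood at 0.73 with DMSO and 0.86 with HMBA, and the 340 that fell (2.29%) at -0.76 and -0.69. Each list favours the inducer it was chosen with, and both tests leave out the spread of the RNA before treatment. With arrays scaled to the same spread the numbers were 1071 with HMBA and 1571 with DMSO, so the counts do not rank the inducers.

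**Figure D2:**
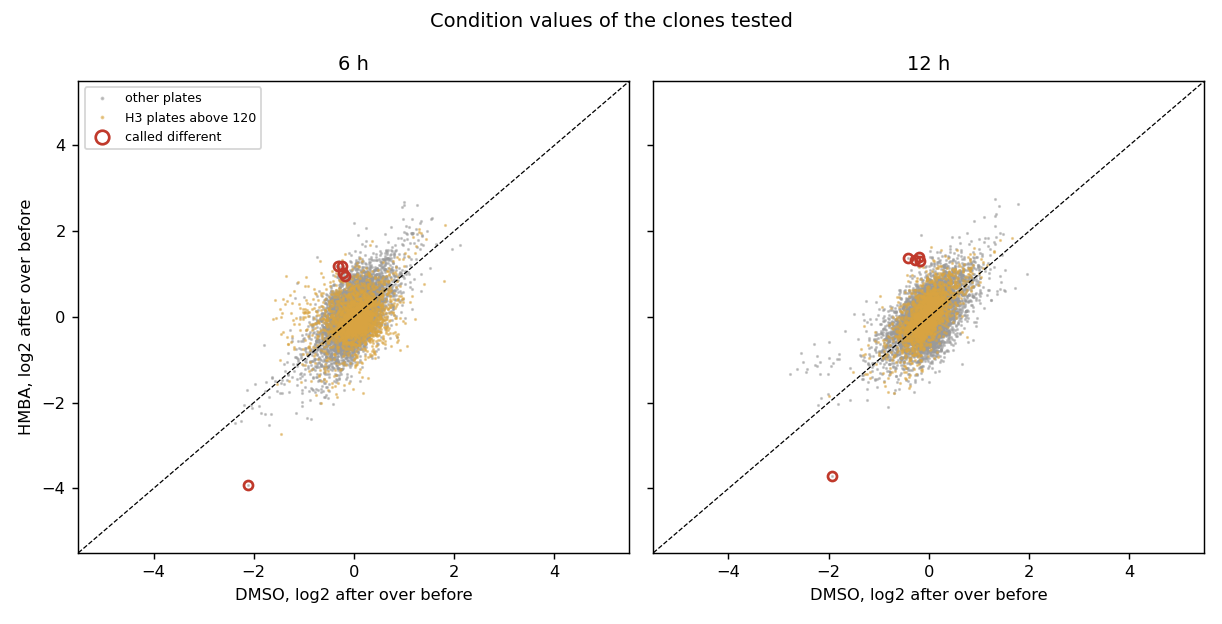
Condition value of each of the 14816 clones with HMBA (vertical) against DMSO (horizontal), in log2 units after over before treatment, at 6 h and at 12 h, with the H3 plates above 120 in yellow and the line of equal values dashed. The 5 clones called different are circled: 4 lie above the line with DMSO values between -0.41 and -0.17, and 1 lies far below it, near -2 with DMSO and near -4 with HMBA.

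The direct contrast asked which clones differed between HMBA and DMSO, averaged over 6 and 12 h. It called 5 of the 14816 clones (0.0337%), 4 higher and 1 lower with HMBA. All 5 lay outside the H3 plates above 120, where 0 of 2482 clones were called by limma and 406 (16.4%) had an unadjusted p below 0.05. Over all clones 2187 (14.8%) had such a p, 1240 of them higher and 947 lower with HMBA. The median 95% half-width of a difference was 0.41 log2 units, before any adjustment for the number of clones, against a median size of difference of 0.19. The number of calls depended strongly on the setting. It was 0 without replicate 1, 2 or 3, 1 without replicate 4, 0 without either time and 0 with arrays scaled to the same spread. When the dimmer clones were left out it was 198 of the 7408 clones then tested (166 higher and 32 lower).

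Clone H3041F03 had the largest positive difference among called clones listed on all 8 pairs. With HMBA at 6 h its log2 ratios on replicates 1 to 4 were 1.42, 1.40, 0.81 and 1.11, and with DMSO 0.22, 0.15, -0.60 and -0.71. The 12 h arrays gave 1.68, 1.51, 1.13 and 1.02 with HMBA and 0.026, 0.085, -0.57 and -0.64 with DMSO. The HMBA arrays all lay above the DMSO arrays of the same time, and within each group the Cy5 arrays lay above the Cy3 arrays. The 8 pair differences ranged from 1.21 to 1.82. Averaged over both times the clone stood at 1.26 with HMBA and -0.26 with DMSO, a difference of 1.52 (SE 0.14, 95% interval 1.19 to 1.84, limma adjusted p = 0.0353), or 2.86-fold. It rose with HMBA against before treatment (limma adjusted p = 0.000749), while its DMSO value did not pass (adjusted p = 0.242). Intensity before treatment ranged from 2598 to 12767 on HMBA arrays and from 4634 to 7978 on DMSO arrays.

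Clone H3045E11, from another plate, showed nearly the same values. With HMBA it was at 1.40, 1.20, 0.57 and 0.94 at 6 h and at 2.00, 1.59, 1.07 and 0.92 at 12 h. With DMSO it was at -0.056, 0.32, -0.59 and -0.56 at 6 h and at 0.24, 0.21, -0.58 and -0.67 at 12 h. Again no HMBA value reached down to a DMSO value of the same time, and Cy5 arrays lay above Cy3 arrays. The difference was 1.42 (SE 0.15, 95% interval 1.07 to 1.78, limma adjusted p = 0.0489), or 2.68-fold, and pair differences ranged from 0.87 to 1.76. Over the 48 arrays from 6 to 36 h its ratios correlated with those of H3041F03 at r = 0.932, a description over arrays that share inducers, times and dyes.

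The other two clones called higher with HMBA differed in how steady they were. The first followed the same course as the pair above, with r = 0.924 to H3041F03, and stood at 1.14 with HMBA and -0.17 with DMSO, with pair differences between 0.78 and 1.56 on 8 of 8 pairs (difference 1.31, limma adjusted p = 0.0489). The second was a dim clone, with intensities before treatment as low as 27.2 on a DMSO array. It was listed on 7 pairs and had pair differences between 0.31 and 3.07, with a mean of 1.28 with HMBA and -0.36 with DMSO (difference 1.64, limma adjusted p = 0.0353).

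Clone H3035B01 was the only clone called lower with HMBA. It was listed on 7 of the 8 pairs and so fell outside the rule for named clones, and it is named after its values were seen. With DMSO its log2 ratios were -1.88, -2.03, -2.0 and -2.56 at 6 h and -2.38, -1.96, -1.83 and -1.59 at 12 h. With HMBA they were -3.83, -4.32 and -3.74 on replicates 1 to 3 at 6 h and -4.36, -3.46, -3.96 and -3.06 at 12 h. All HMBA values lay below all DMSO values. The clone thus fell with both inducers (limma adjusted p = 1.17e-05 with HMBA and 0.000778 with DMSO), to a mean of -3.81 log2 units with HMBA and -2.03 with DMSO. The difference was -1.78 (SE 0.16, 95% interval -2.15 to -1.42, limma adjusted p = 0.0353). With arrays scaled to the same spread it was -0.55 (adjusted p = 0.290), since the scaling widens the DMSO and narrows the HMBA ratios. Intensity after HMBA lay between 21.3 and 443, against 1469 to 4875 before treatment on the same arrays, so the size of the fall rests on dim spots. After DMSO it lay between 509 and 1147.

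**Figure D3:**
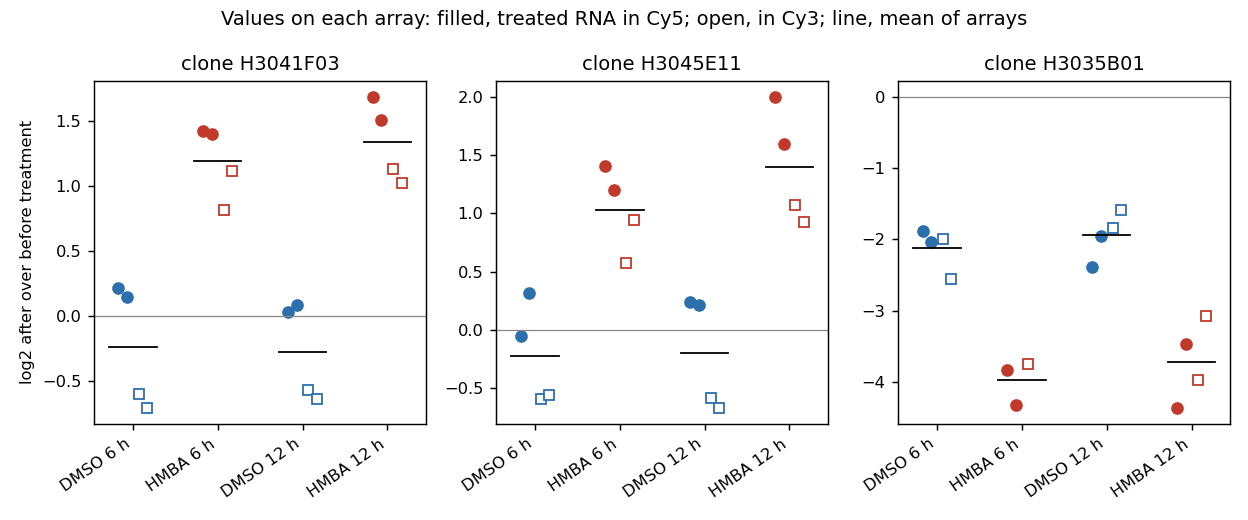
Log2 ratio after over before treatment of clones H3041F03, H3045E11 and H3035B01 on each array of the 4 groups, with filled circles for treated RNA in Cy5, open squares for Cy3 and a line at the mean of the arrays. HMBA arrays lie between 0.57 and 2.00 for the 2 clones higher with HMBA, and DMSO arrays between -0.71 and 0.32. For H3035B01 the DMSO arrays lie between -2.56 and -1.59 and the HMBA arrays between -4.36 and -3.06.

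At later times and with trichostatin A (TSA, a histone deacetylase inhibitor given at 30 nM), whose arrays share the slide layout of HMBA, the named clones stood as follows. H3041F03 was at 0.78 ± 0.11 (SD, n = 4 technical arrays) after 24 h and 0.85 ± 0.70 after 36 h of HMBA, and at -0.19 ± 0.29 and -0.30 ± 0.35 with DMSO. With TSA it stood at 0.60 ± 0.07 at 6 h, 0.40 ± 0.07 at 12 h and -0.23 ± 0.13 at 24 h, between HMBA and DMSO at the early times. Its difference between HMBA and TSA at 6 and 12 h was 0.76 (SE 0.14, limma adjusted p = 0.0660). H3045E11 followed the same order, with 0.61 ± 0.29 at 6 h and 0.48 ± 0.30 at 12 h of TSA. H3035B01 was at -3.21 ± 0.13 and -3.37 ± 0.17 at 6 and 12 h of TSA, closer to HMBA than to DMSO. Its difference between TSA and DMSO was -1.26 (SE 0.16, limma adjusted p = 0.0410), and that between HMBA and TSA was -0.52 (SE 0.16, adjusted p = 0.179).

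**Figure D4:**
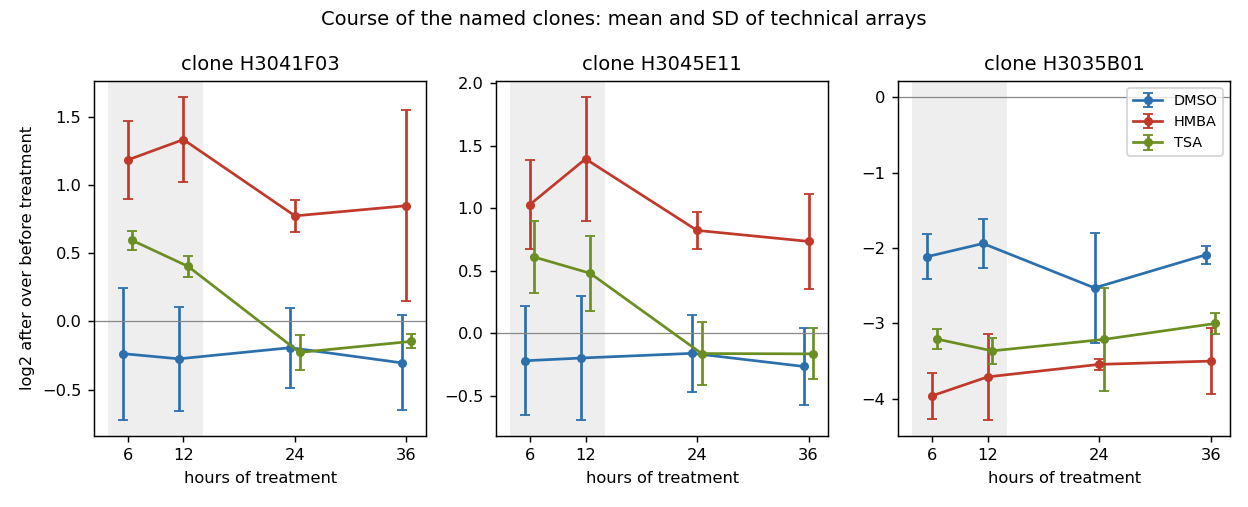
Mean and SD of the technical arrays (n = 4, and 3 for H3035B01 at 6 h of HMBA) for clones H3041F03, H3045E11 and H3035B01 over 6 to 36 h of DMSO, HMBA and TSA, in log2 units after over before treatment, with points offset sideways and the 6 and 12 h window shaded. H3041F03 and H3045E11 peak with HMBA at 12 h at 1.34 and 1.40 and stay at or below -0.16 in the mean with DMSO at every time shown.

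Since the 4 arrays of a group are technical, single times were described by size. At 6 h, 27 of the 14197 clones listed on all 4 pairs (0.190%) differed by at least 1 log2 unit in 1 direction on every pair, of which 21 had more signal with HMBA and 6 less. At 12 h 14 of 13561 did (0.103%), of which 11 were higher and 3 lower. Differences of this size that turned with the dye instead were seen for 28 clones at 6 h and for 84 at 12 h. Of the latter, 81 were higher with HMBA on the Cy3 pairs. At 6 h about as many clones thus followed the dye as the inducer (28 against 27), and at 12 h more did (84 against 14). The 21 clones higher at 6 h differed by a median of 1.50 at 6 h and, in log2 units again, 0.80 at 12 h, and 10 of the 18 listed on every 12 h pair were higher on all 4 of them, against 12.8% of all clones. The 6 lower clones had medians of -1.42 at 6 h and -0.91 at 12 h, and 3 of 6 were lower on all 4 pairs at 12 h, against 7.52% of all clones. The 11 clones higher at 12 h had differences whose medians were 1.47 at 12 h and 1.24 at 6 h, with 7 of 11 higher on every 6 h pair, against 10.4% of all clones. With HMBA 7 of these 11 were above and 4 below their level before treatment at both times, and all 21 chosen at 6 h were above it. Choosing clones for a high HMBA minus DMSO value favours high HMBA values, so nothing is read from these counts. It also favours a larger median difference at the time used for the choice.

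Over both times, 4 of the 13120 clones listed on all 8 pairs (0.0305%) were at least 1 log2 unit higher with HMBA on each. By the same rule 0 were lower, and 0 clones of this size followed the dye. Clone H3035B01, with differences between -2.29 and -1.47 on its 7 listed pairs, could not enter these counts. With plate-row medians removed 0 clones passed, and with arrays scaled to the same spread 1 did. With a size of 0.5 log2 units 36 clones passed (0.274%), 26 higher and 10 lower, against 17 that followed the dye. The 26 higher clones had differences between 0.72 and 1.77, with a median of 1.21. Their HMBA values had medians of 1.13 at 6 h and 1.21 at 12 h, and their DMSO values -0.11 and -0.16. Of the 26, 24 were above their level before treatment at both times of HMBA, 9 at both times of DMSO and 14 below it at both times of DMSO. Against before treatment 23 of them were called with HMBA in either direction, against 18.4% of all clones. With DMSO 3 were called higher and 3 lower, against 1.89% and 2.29% of all clones. Since these clones were chosen for their distance between HMBA and DMSO, nothing is read from these counts. At 24 and 36 h their difference had a median of 0.99. The 10 lower clones had differences between -1.34 and -0.91, with medians of -1.63 and -1.43 at 6 and 12 h of HMBA and -0.41 and -0.38 of DMSO. Of the 10, 9 were below their level before treatment at both times with HMBA and 9 with DMSO, and 9 were called in either direction with HMBA, against 18.4% of all clones. With DMSO 1 was called higher and 1 lower. At 24 and 36 h their difference had a median of -0.42, against -1.17 at 6 and 12 h. Both the higher and the lower clones were chosen on the 6 and 12 h arrays, which favours larger differences there. No change with time is therefore read from these medians. Among the 36, 3 were also called in the direct contrast, and the highest adjusted p was 0.262.

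**Figure D5:**
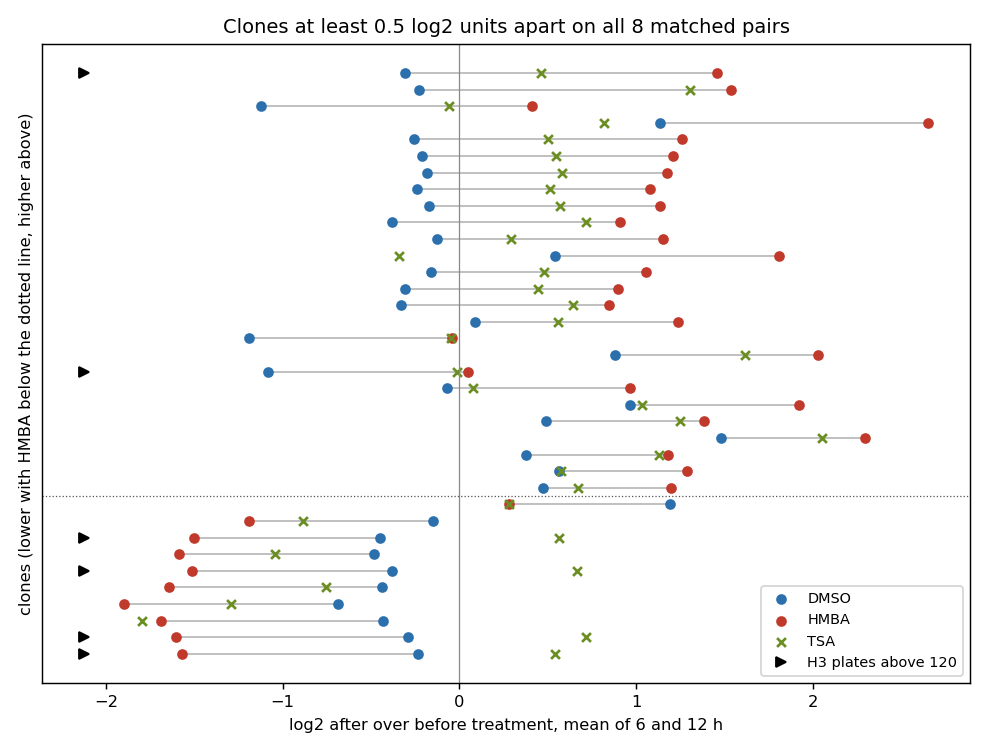
The 36 clones that differed by at least 0.5 log2 units on all 8 matched pairs, 1 line each, with their mean over 6 and 12 h of DMSO, HMBA and TSA (log2 after over before treatment) and a triangle for the 6 from the H3 plates above 120. The 26 clones above the dotted line were higher and the 10 below it lower with HMBA, and TSA lies between DMSO and HMBA for 24 of the 26 and 5 of the 10. Since the clones were chosen for a wide distance between DMSO and HMBA, nothing is read from these counts.

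The H3 plates above 120 exceeded their share of all clones among large differences at 6 h but not at 12 h. They held 9 of the 27 clones of at least 1 log2 unit at 6 h (33.3%, against 16.9% of all clones listed on every pair). At 12 h they held 0 of 14, against 16.1% of all clones listed. With a size of 0.5 log2 units they held 80 of 274 at 6 h (29.2%, against 16.9%) and 26 of 164 at 12 h (15.9%, against 16.1%). Of the 36 clones of 0.5 units over both times they held 6 (16.7%, against 16.2%), 2 higher and 4 lower. The 4 lower clones came from 2 plates and had a course of their own. At 6 h they had a median of -1.58 with HMBA (range -1.87 to -1.53), -0.35 with DMSO and 0.56 with TSA. At 36 h the medians were 2.82, 1.61 and 4.58 in that order. These clones were thus lowest with HMBA at 6 h and far above their level before treatment at 36 h with each of the 3 inducers. Their HMBA and TSA values come from the same slide layout and their DMSO values from another. The 6 lower clones from other plates had medians of -1.68 at 6 h and -0.85 at 36 h of HMBA.

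HMBA was also set against TSA, on the same slide layout, and TSA against DMSO, in the same fit at 6 and 12 h. Of the clones tested, 48 (0.324%) passed between HMBA and TSA, with 31 of them higher under HMBA, and their median size of difference was 1.27 log2 units. Between TSA and DMSO 178 (1.20%) passed, with 128 of them higher under TSA and a median size of 1.03. With plate-row medians removed the split of TSA against DMSO was 251 higher and 178 lower. The H3 plates above 120 held 11 of the 48, or 0.443% of their clones against 0.3% of the others, and 19 of the 178, or 0.766% against 1.29%. These comparisons share conditions with the contrast of HMBA and DMSO and are only set beside it. Leaving out any 1 replicate gave 0 calls for HMBA against TSA, and 2 without replicate 1 and 0 otherwise for TSA against DMSO.

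At 24 and 36 h the contrast of HMBA and DMSO had 0 limma calls and a lowest adjusted p of 0.0692, and 1955 clones (13.2%) had an unadjusted p below 0.05. Whether the difference between HMBA and DMSO itself changed between 6 and 12 h and 24 and 36 h was tested in the same fit. Limma called 0 of the 14816 clones, with 1117 (7.54%) at an unadjusted p below 0.05. Among the H3 plates above 120 the share at that p was 19.4%, and among other plates 5.15%. For H3041F03 the difference was 1.06 at 24 and 36 h, a change of -0.46 (SE 0.20, 95% interval -0.92 to 0.0078, limma adjusted p = 0.659). For H3045E11 it was 0.99, a change of -0.43 (SE 0.22, 95% interval -0.93 to 0.072, limma adjusted p = 0.701). For H3035B01 it was -1.21, a change of 0.57 (SE 0.22, 95% interval 0.053 to 1.08, limma adjusted p = 0.647). These clones were named for a large difference at 6 and 12 h, which favours a smaller one later. Nothing is therefore read from their changes. Over all clones the median 95% half-width of a change between periods was 0.58 log2 units.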

How the data were processed

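The authors deposited, per array and slide, 2 spot intensities per clone on a linear scale, named Control and Signal in the file headers and taken here as before and after treatment, a direction taken from the labels and from the match with the deposited ratios. They also deposited a table of linear ratios, after over before treatment, with a median per array between 0.924 and 1.07 over these 16 arrays. Its log2 ratios correlated with those computed here at r between 0.954 and 0.996, and its centring step was not given in the sources used here. The files hold no background or flag columns.

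Intensities were corrected with normexp (offset 50) and loess-normalized within each slide (span 0.3) with limma 3.58.1 in R 4.3.3. Clones listed on at least 3 of 4 arrays of each of the 12 conditions from 6 to 36 h were kept. The 4 arrays of a condition were averaged over the 2 dye orientations and counted as 1 value. A limma model had a mean per inducer and period (6 and 12 h, 24 and 36 h) and the time within each period, with 8 coefficients and 4 residual degrees of freedom (prior 3.86). TSA entered for the spread. P-values are Benjamini-Hochberg adjusted over all clones tested and measure the spread of condition values between times and chemicals, not between repeated cultures, and the number of arrays limits their precision. Named clones are at most 2 higher and 2 lower, called, with the same sign on all 8 pairs and outside the H3 plates above 120. The samples, lists and rules were chosen with earlier results of these data known. Alternatives covered background correction, normalization, filters, plate position, dyes, replicates, times and conditions in the fit.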

Additional observations from a re-analysis of the deposited data

How the results depend on the processing

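The positive difference of H3041F03 and H3045E11 and the negative one of H3035B01 kept their sign under every alternative that could be computed (23, 23 and 22), with ranges of 1.32 to 1.65, 1.20 to 1.60 and -1.93 to -0.55, and missed the threshold under 10, 12 and 9. The count of 5 clones for HMBA against DMSO was 9 with the deposited ratios, 17 after removal of plate-row medians and 11 of plate medians. It was 39 of the 10129 clones listed on all arrays and 3 of the 15554 listed on 1 array of each orientation. Without the dimmer clones it was 198 of 7408, without the time term 18 and in the 4 conditions alone 174. It was 0 in scaled arrays, on Cy5 or Cy3 arrays alone, without TSA in the fit, without 6 h and without 12 h, and 0 to 1 when a replicate was left out. The fits on 1 dye, without TSA, without a time or without a replicate had fewer arrays or conditions. So did the fit of the 4 conditions alone, with its 174 calls, while the scaled arrays kept all of them. The cause of these shifts was not tested. The numbers of clones tested under these filters apply to the comparisons that follow as well. For HMBA against TSA and TSA against DMSO, in this order, the counts of 48 and 178 were 80 and 306 without background correction, 0 and 499 in scaled arrays, 78 and 272 with the deposited ratios, 291 and 429 after removal of plate-row medians, 203 and 298 of plate medians, 257 and 379 for clones listed on all arrays, 14 and 0 for those listed on 1 array of each orientation, 346 and 489 without the dimmer clones, 105 and 283 without the time term, and 0 and 0 on Cy5 or Cy3 arrays alone and without 6 or 12 h. HMBA against TSA had 27 calls without the H3 plates above 120. Without a replicate they ranged from 0 to 0 and from 0 to 2. Against before treatment, HMBA (2724) had 1071 calls in scaled arrays, 66 without 6 h, 482 without 12 h and 1613 to 2241 without a replicate. DMSO (620) had 1571 in scaled arrays, 348 on Cy5 and 36 on Cy3 arrays, 2 without 6 h, 0 without 12 h and 307 to 379 without a replicate. The 4 clones of 1 log2 unit on all 8 pairs were 7 with median centring, 1 in scaled arrays, 0 with plate-row medians removed, 58 on the 4 Cy5 pairs and 70 on the 4 Cy3 pairs, 36 at 0.5 log2 units and 5 to 7 without a replicate.

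Same-numbered arrays of HMBA and DMSO deviated from their group means with correlations between -0.0152 and 0.199, so the number marks the dye but is not taken as a pairing. With single arrays and a replicate block, which counts technical arrays as replicates, HMBA against DMSO had 1015 calls, the change between periods 56, HMBA against TSA 1236, TSA against DMSO 1441, and HMBA and DMSO against before treatment 4547 and 2317. Without the replicate number, an alternative chosen after seeing the data, these counts were 961, 70, 1241, 1383, 4724 and 1739. The fit without the block that is reported above has 1 value per condition. Dim spots limit the size of the fall of H3035B01.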

Other observations

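Over the 48 arrays from 6 to 36 h, 5 clones correlated with H3041F03 at r above 0.9, and the median over all clones was -0.0055. The 6 clones came from 5 plates and stood at a median of 1.16 log2 units with HMBA and -0.20 with DMSO at 6 and 12 h. Their differences lay between 1.22 and 1.52, and 3 of them were called (limma adjusted p between 0.0353 and 0.117). All 5 were among the 26 clones higher with HMBA by 0.5 log2 units on all 8 pairs, a list chosen on part of the same arrays. That list held 0.198% of the clones listed on all 8 pairs. At r above 0.8 there were 15 clones, of which 8 were among the 36 apart by that size in either direction. Whether the 6 clones represent 1 gene is not known here.

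The median SD per array was 0.657 with HMBA and 0.424 with DMSO, and the spread of condition values over clones was 0.452 and 0.426 at 6 and 12 h of HMBA, 0.305 and 0.307 of DMSO and 0.385 and 0.392 of TSA. With arrays scaled to the same spread, HMBA against DMSO had 0 calls in place of 5.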
